A study of Homo sapiens with 4 samples.

Results

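Genes that build the mitochondrial respiratory chain, the mitochondrial ribosome and the protein import machinery were followed after knockdown of HRP2 in LP-1, an established cell line from human multiple myeloma. HRP2, the product of HDGFL2, is a reader of histone methylation. Members were chosen by symbol: every gene or transcript called in the authors' tables whose symbol begins with NDUF, SDHA to SDHD, UQCR, COX or COQ and a digit, ATP5, MRPL, MRPS, TIMM or TOMM, with NDUFA4L2 left out. This gave 18 of the 684 genes in the authors' deposited gene table and 4 of the 1040 transcripts in the deposited transcript table. They came from 21 genes, and only COQ4 was in both tables. The authors' list of gene identifiers held 225 protein-coding (mRNA) genes that match the same rule, so 204 of them were in neither table.

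The study had 4 libraries, 2 of LP-1 cells given a lentiviral guide RNA against HRP2 and 2 of LP-1 cells given a non-target control guide. All were grown in the same medium with serum, and the labels give no drug treatment and no time after transduction. The labels do not say whether the guide cut or repressed the gene, whether cells were cloned, or whether libraries with the same treatment had separate cultures as their source. The spread behind a Q value may thus be technical. The measurements are the authors' log2 fold changes (HRP2 knockdown relative to control), each with a Q value, a p-value corrected for multiple testing. Values per library were not used here. The depth is therefore unknown, and no fold change carries an SD or shows whether the groups overlap. Every Q value in the tables was under 0.05, so a gene outside them has no value and is not shown to be unchanged. In the authors' deposited gene table HDGFL2, the targeted gene, was lower (log2 fold change -1.37, Q = 2.99e-13). The same table held 3 of 9 plasma cell markers (SDC1, TNFRSF17 and IRF4), all 3 lower. It held none of 17 markers of T and NK, myeloid, stromal and erythroid cells. Over all listed mRNA genes, 2.81% were called in either direction and 1.32% were called lower. The marker counts were not tested, and neither cell identity nor purity is read from them. Levels were not available, so the tables cannot show whether the defining markers of any of these cell types were expressed.

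As background, mitochondria make ATP by passing electrons along complexes I to IV of the inner membrane, with coenzyme Q as the carrier between the early complexes and complex III, and by driving ATP synthase with the resulting proton gradient. A few subunits are encoded by mitochondrial DNA and made on mitochondrial ribosomes, whose own proteins come from the nucleus. The great majority of mitochondrial proteins are made in the cytosol and enter through the TOM complex of the outer membrane and the TIM complexes of the inner membrane. Plasma cells, from which myeloma arises, secrete large amounts of antibody and have a high demand for ATP and for protein quality control.

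Shown here is the start-proximal DNA of the member with the largest change and of some members with a core of a mitochondrial regulator. The DNA just before the RefSeq start (GRCh38.p14) is printed for SDHB and SDHD, which encode 2 subunits of the same complex, for TIMM23, which encodes the inner membrane channel, and for MRPS6, the member with the largest change. Each run goes 5′ to 3′ on the gene's strand and ends at the base before the start, and it stops short of any neighbouring protein-coding gene. Capitals mark the GABP core CCGGAAG, an ETS-family sequence, on either strand (as CTTCCGG on the other), or the NRF1 core GCGCATG, likewise on either strand. These factors are known regulators of nuclear genes for mitochondria. MRPS12, which also held a GABP core upstream of a start, is not printed. The runs lie at chr1:17054033-17054282 (SDHB, minus strand), chr11:112086757-112086872 (SDHD, plus), chr10:45972239-45972488 (TIMM23, plus) and chr21:34073328-34073577 (MRPS6, plus).
SDHB: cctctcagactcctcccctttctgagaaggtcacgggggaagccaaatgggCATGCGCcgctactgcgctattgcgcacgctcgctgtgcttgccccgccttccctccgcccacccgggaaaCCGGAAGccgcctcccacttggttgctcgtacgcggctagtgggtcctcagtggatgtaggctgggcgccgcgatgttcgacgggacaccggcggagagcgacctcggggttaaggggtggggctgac
SDHD: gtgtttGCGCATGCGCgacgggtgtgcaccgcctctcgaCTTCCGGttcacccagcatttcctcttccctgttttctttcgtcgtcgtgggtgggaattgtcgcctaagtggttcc
TIMM23: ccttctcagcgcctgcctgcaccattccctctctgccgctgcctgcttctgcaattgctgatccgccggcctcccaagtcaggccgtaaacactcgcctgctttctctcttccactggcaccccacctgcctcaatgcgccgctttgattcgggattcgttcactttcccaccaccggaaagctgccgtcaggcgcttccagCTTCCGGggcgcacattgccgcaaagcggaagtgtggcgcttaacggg
MRPS6: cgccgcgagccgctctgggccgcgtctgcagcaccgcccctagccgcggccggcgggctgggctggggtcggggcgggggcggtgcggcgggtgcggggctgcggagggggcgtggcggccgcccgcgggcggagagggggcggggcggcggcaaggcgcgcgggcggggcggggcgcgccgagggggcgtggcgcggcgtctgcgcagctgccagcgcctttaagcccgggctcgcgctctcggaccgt

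SDHB and SDHD each held an NRF1 core upstream of a GABP core, 64 bases apart in SDHB and 23 in SDHD, where the NRF1 core occurs on both strands with overlap. TIMM23 held a GABP core alone, and the MRPS6 run held neither.

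Of the 18 called genes, 17 were higher in the knockdown and 1, COQ4, was lower, in the authors' deposited gene table. The 18 are 8.0% of the 225 listed members, beside 2.81% of all 24237 listed mRNA genes called in either direction, 1.49% called higher and 1.32% called lower. Because the members were drawn from these calls, nothing is read from that contrast, and listed genes include ones that LP-1 cells may not express. Changes were modest. The median log2 fold change of the 17 higher members was 0.59, or 1.5 times the control level, with a range of 0.50 to 1.10, beside a median of 0.66 for all 361 higher genes of the authors' deposited table. Of the 17, 10 lay under that overall median. Only MRPS6 reached an absolute log2 fold change of 1, as did 0.611% of all listed mRNA genes and 16.1% of all higher genes. Q values ran from 0.00309 for MRPS17 to 0.0471 for MRPL19, and 7 of 18 (38.9%) were under 0.01, beside 37.3% of all called genes and 1.05% of all listed mRNA genes, in the authors' deposited table. MRPL19 was the member nearest the 0.05 limit; members beyond it are not in the table.

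**Figure D1:**
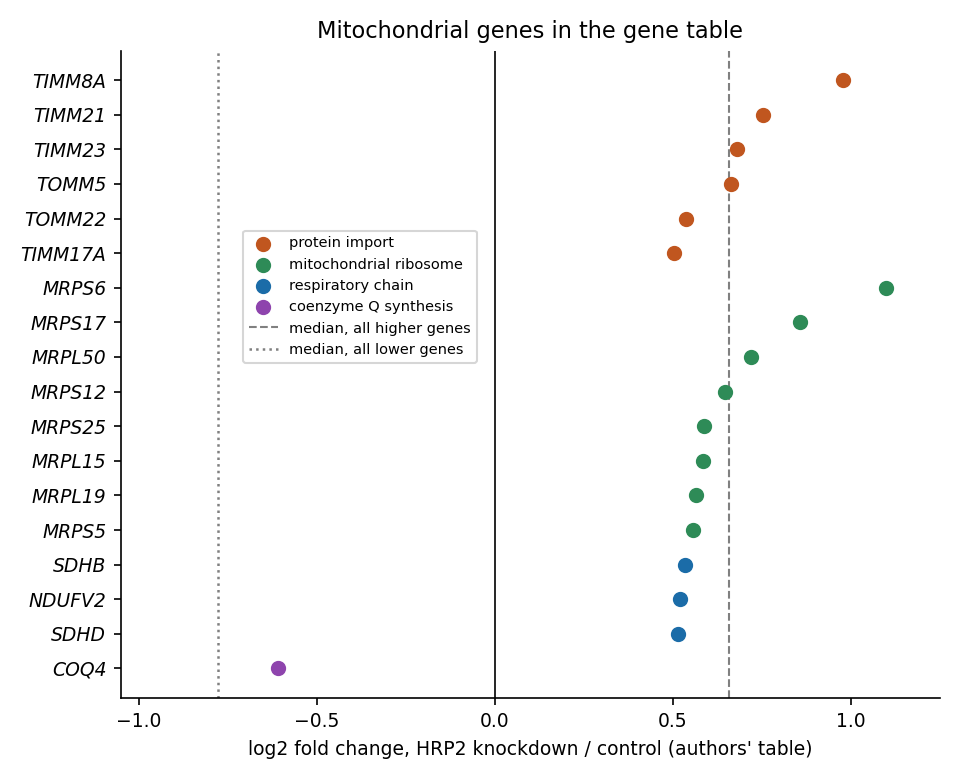
Log2 fold change of HRP2 knockdown over control (x axis) for the 18 member genes (y axis, 1 point a gene, grouped and coloured by role), with the medians of all higher and all lower genes as dashed and dotted lines. Points for 17 genes lie between 0.50 and 1.10, and COQ4 alone lies under 0, at -0.61.

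By role, protein import had 6 of 26 listed genes called (23.1%), the mitochondrial ribosome 8 of 78 (10.3%), and the respiratory complexes and ATP synthase 3 of 110 (2.73%), all 17 of them higher in the authors' deposited table. The share over all listed mRNA genes, 2.81% in either direction, is close to that of respiration. The median log2 fold change of the called genes was 0.67 for import, 0.62 for the ribosome and 0.52 for respiration. These differences between roles were not tested, because the members were chosen from the calls. None of 9 UQCR genes (complex III), 26 COX genes (complex IV) or 20 ATP5 genes (ATP synthase) was in the gene table. These counts go by symbol stem, so they also take in assembly factors, such as COX11 and 4 genes with the SDH stem.

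**Figure D2:**
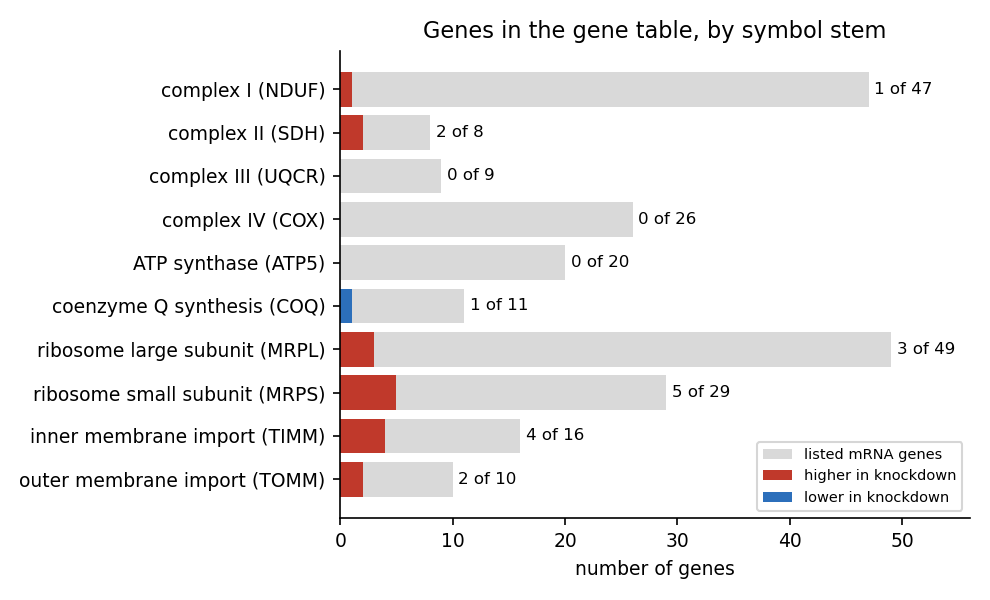
Number of genes (x axis) by symbol stem (y axis): grey bars are the listed mRNA genes, and the coloured part of each bar counts those called higher (red) or lower (blue) in the knockdown. The coloured part is 4 of 16 TIMM, 2 of 8 SDH, 2 of 10 TOMM and 5 of 29 MRPS genes, and the UQCR, COX and ATP5 bars have none.

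The import genes are described from the outer membrane inwards. TOMM22 (gene ID 56993), the central receptor of the TOM complex, was at 1.45 times control (log2 fold change 0.54, Q = 0.0425, authors' deposited table). TOMM5 (401505), a small subunit of the same complex, was at 1.59 times (0.66, Q = 0.0273, authors' deposited table). Both outer membrane genes were thus higher, with TOMM5 just above the median of all higher genes and TOMM22 under it. For TOMM5, 83.5% of the 31-base words of its longest coding transcript also occur in other GENCODE gene models (63.1% of the words in AL138752.2), so its reads could be split if the authors' annotation held these models.

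In the intermembrane space, TIMM8A (1678), a small chaperone that guides membrane proteins between TOM and TIM and whose loss causes a deafness-dystonia syndrome, came next after MRPS6 among all members: 1.97 times control (log2 fold change 0.98, Q = 0.00952, authors' deposited table). Only 6.62% of its words were shared with other genes. It is also the only member on the X chromosome.

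The TIM23 complex, which carries proteins with a cleavable presequence into the matrix, had 3 of its genes called. TIMM21 (29090), a subunit that contacts the TOM complex and the respiratory chain, was at 1.69 times control (log2 fold change 0.75, Q = 0.00464, authors' deposited table). TIMM23 (100287932), the core subunit for which the complex is named, was at 1.60 times (0.68, Q = 0.00865, authors' deposited table). TIMM17A (10440), its channel partner, was at 1.42 times (0.50, Q = 0.0235, authors' deposited table) and had the smallest value of the 17 higher genes. TIMM21 and TIMM23 were therefore above the median of all higher genes and TIMM17A under it. TIMM23 has a near copy, TIMM23B, which is a listed gene and was not called, and 27.8% of the words of TIMM23 occur in other genes. The remaining listed TIMM genes, among them TIMM50, TIMM44, TIMM22, TIMM9, TIMM10 and TIMM13, were not in the table. The TIMM stem also takes in TIMMDC1, a complex I assembly factor, which was not called.

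The small ribosomal subunit had 5 of 29 genes called (17.2%, beside 2.81% of all listed mRNA genes). MRPS6 (64968) led all members at 2.14 times control (log2 fold change 1.10, Q = 0.00760, authors' deposited table) and ranked 44 among the 361 higher genes. Its interval on chromosome 21 overlaps that of SLC5A3, a myo-inositol transporter gene, which had nearly the same value in the authors' deposited table (log2 fold change 1.11, Q = 0.00243). Of the words of MRPS6, 32.7% occur in other gene models. How far reads of either gene were counted for the other was not tested. MRPS17 (51373) followed at 1.81 times control (0.86, Q = 0.00309, authors' deposited table), the smallest Q value of any member, although 46.9% of its words occur in other gene models.

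The other small subunit genes lay closer together. MRPS12 (6183), a protein of the decoding centre, was at 0.65 on the log2 scale (Q = 0.0395, authors' deposited table). MRPS25 (64432) had 0.59 (Q = 0.00373, authors' deposited table) and MRPS5 (64969) 0.56 (Q = 0.00879, authors' deposited table). MRPS12 thus had a larger fold change than MRPS25 and MRPS5 but also a larger Q value, so size of change and Q value did not rank these genes alike.

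The large subunit had 3 of 49 genes called (6.12%, beside 2.81% of all listed mRNA genes), all with Q values over 0.02. MRPL50 (54534) was at 1.65 times control (log2 fold change 0.72, Q = 0.0219, authors' deposited table). MRPL15 (29088) and MRPL19 (9801) lay at 1.5 times (0.59, Q = 0.0433) and 1.48 times (0.57, Q = 0.0471) in the authors' deposited table. Each of the 3 had at most 3.14% of its words in other genes, so these values rest on sequence that is nearly unique in GENCODE 29.

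In the respiratory chain the called genes were SDHB, SDHD and NDUFV2, and their fold changes lay within a narrow range. SDHB (6390), the iron-sulfur subunit of complex II, was at 1.45 times control (log2 fold change 0.53, Q = 0.0274, authors' deposited table). SDHD (6392), a membrane anchor of the same complex, was at 1.43 times (0.51, Q = 0.0415, authors' deposited table). Of the words of SDHD 30.9% occur in other gene models, and of those of SDHB 0.0890%. Complex II links the tricarboxylic acid cycle to the chain and is the only complex with no subunit from mitochondrial DNA. Of the 8 listed genes with the SDH stem, the others, SDHA, SDHC and 4 assembly factors, were not in the table.

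NDUFV2 (4729), an iron-sulfur subunit of complex I, was at 1.43 times control (log2 fold change 0.52, Q = 0.0257, authors' deposited table). It was the only 1 of 47 listed NDUF genes to be called (2.13%, beside 2.81% of all listed mRNA genes). Of the words of NDUFV2, 74.6% occur in another GENCODE gene model, AP005263.1. NDUFA4L2, which carries the stem but is a hypoxia-inducible paralogue and not a member, was lower at 0.227 times control (log2 fold change -2.14, Q = 0.0128, authors' deposited table).

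COQ4 (51117), required for coenzyme Q synthesis, was the only member that was lower: 0.655 times control (log2 fold change -0.61, Q = 0.0423, authors' deposited table). None of its words occur in another gene. The other 10 listed COQ genes were not called. PDSS1, which makes the isoprenoid tail of coenzyme Q and has COQ1 as an older name, was higher instead, at 1.88 times control (log2 fold change 0.91, Q = 0.0127, authors' deposited table). The called genes for coenzyme Q synthesis therefore went in both directions.

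**Figure D3:**
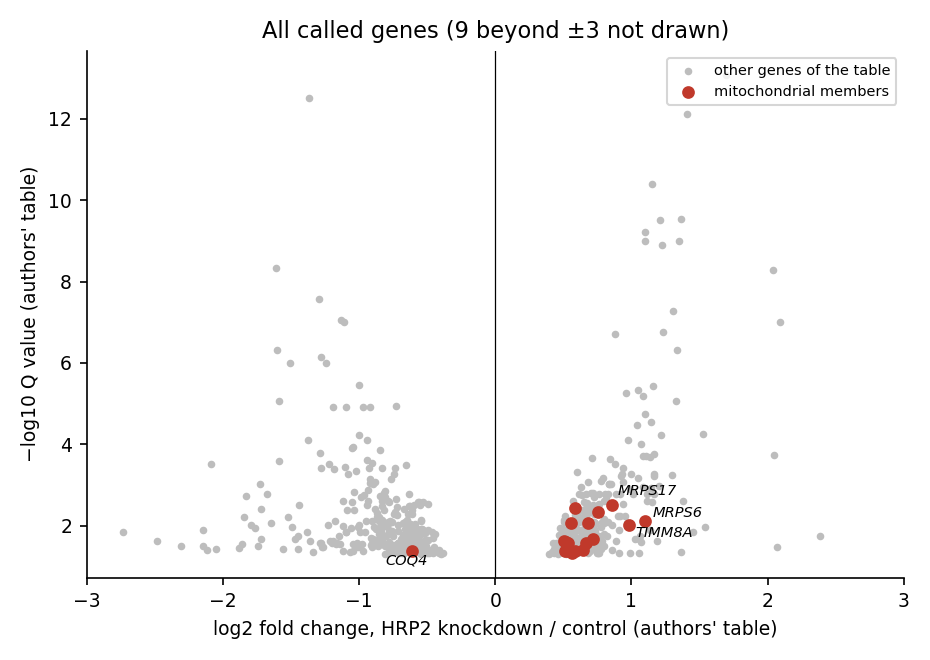
Log2 fold change (x axis) against −log10 of the Q value (y axis) for the authors' called genes, 1 point a gene, with members in red; 9 genes beyond 3 in absolute log2 fold change, none of them a member, are not drawn. Members sit in the lower part of the right-hand cloud, and COQ4 is the single red point on the left.

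At the transcript level 4 members were called, 2 higher and 2 lower, each from a different gene. They come from 1.78% of the 225 listed member genes, beside 3.62% of all listed mRNA genes with at least 1 called transcript. The transcript of COX11, an assembly factor that delivers copper to complex IV, was lower (XM_017024192.2, log2 fold change -9.33, Q = 0.00130, authors' deposited table). A transcript of MRPL43, a large subunit ribosomal protein, was lower as well (XM_006718035.4, -9.01, Q = 0.00272, authors' deposited table). Neither gene was in the gene table.

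Among the higher transcripts, TOMM40L, a paralogue of the TOM channel gene, had the smallest change of the 4 (XM_017002482.2, log2 fold change 4.74, Q = 0.000948, authors' deposited table), and its gene was not called. COQ4 had a value of 9.04 (NM_001305942.1, Q = 0.00284, authors' deposited table), against -0.61 for the gene. The GENCODE 29 transcript matched to NM_001305942.1 has 4 exons, 928 bases and 151 codons. The one matched to NM_016035.4, the full-length transcript, has 7 exons, 1548 bases and 265 codons. Of the 31-base words of the shorter GENCODE transcript, 42.2% also occur in the longer. The called transcript and the gene thus had opposite directions. How the authors formed the gene value is not given in the sources used here, and no other COQ4 transcript, NM_016035.4 included, was in the transcript table. The called TOMM40L and COQ4 transcripts were not found in the authors' list of transcript identifiers, while those of COX11 and MRPL43 were. The reason was not tested.

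Changes of this size were common in the authors' deposited transcript table. Of all 1040 called transcripts, 585 lay between 8 and 10 in absolute log2 fold change, and 3 of the 4 members did. Predicted models (XM or XR accessions) made up 582 of the 1040 and 3 of the 4. Without values per library it is not known whether these transcripts were at 0 in 1 group.

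**Figure D4:**
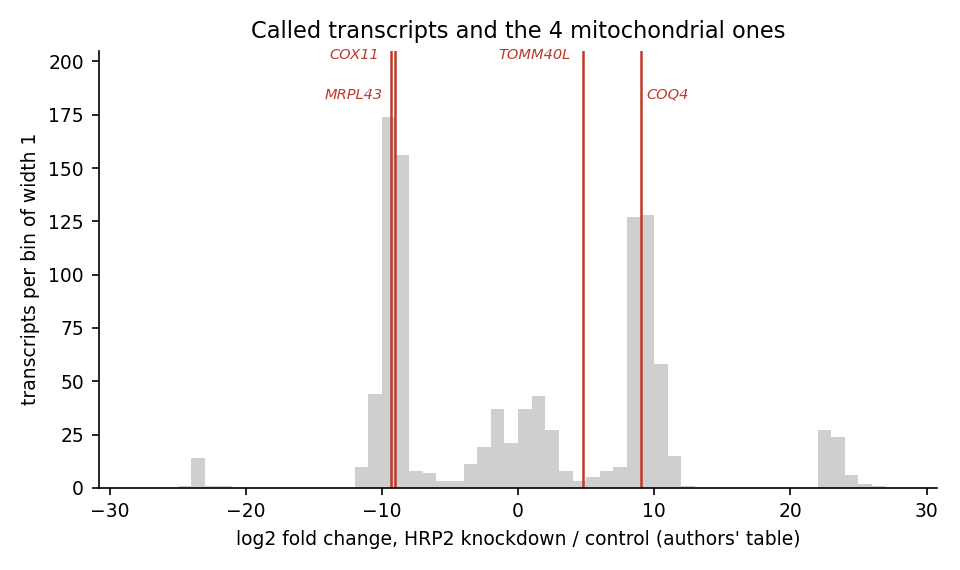
Number of called transcripts (y axis, bins of width 1) by log2 fold change of knockdown over control (x axis), with the 4 member transcripts as red lines. COX11 and MRPL43 fall in the tall mode near -9 and COQ4 in that near 9, and TOMM40L lies at 4.74 between the modes.

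Further mitochondrial genes were taken from 7 lists of 202 genes, of which 187 were among the authors' identifiers; the 15 genes of the mitochondrial genome were not matched and are not analysed here. Of the 187, 14 were called in the authors' deposited gene table (beside 2.81% of all listed mRNA genes), 12 higher and 2 lower. IDH1, 1 of the 2 lower genes, encodes a cytosolic enzyme. From 36 respiratory chain and assembly genes, of which 1, TIMMDC1, also falls under the TIMM stem, PDSS1 and COA4, a complex IV assembly factor, were higher (log2 fold change 0.91 and 0.57). Of 41 translation factors and mitochondrial tRNA synthetases only SLIRP, which stabilises mitochondrial mRNAs, was called, at 0.94 (Q = 0.00294, authors' deposited table). Of 21 genes for mitochondrial DNA and transcription, SSBP1, the mitochondrial single-strand binding protein, and PPARGC1B, a coactivator of mitochondrial gene expression, both had 0.60 in the authors' deposited table.

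Of 34 import, folding and proteolysis genes outside the symbol rule 2 were called, beside 2.81% of all listed mRNA genes. Both were higher, like the called TIMM and TOMM genes. GRPEL1, the exchange factor of the matrix HSP70 that pulls proteins through TIM23, was at 1.70 times control (log2 fold change 0.77, Q = 0.0187, authors' deposited table). HSPE1, the matrix co-chaperonin, was at 2.10 times (1.07, Q = 0.0001, authors' deposited table), and its transcript NM_002157.2 had 1.08 (Q = 0.0496). For mitophagy and dynamics, 2 of 25 were called: BNIP3, a mitophagy receptor induced by hypoxia, at 1.52 (Q = 5.62e-05), and VDAC1, the outer membrane channel, at 0.48 (Q = 0.0395, authors' deposited table).

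The tricarboxylic acid cycle and pyruvate entry had 5 of 31 called (beside 2.81% of all listed mRNA genes), in both directions. PDHB and DLAT, subunits of pyruvate dehydrogenase, had log2 fold changes of 0.53 and 0.58, and IDH3A, of the NAD-dependent isocitrate dehydrogenase, 0.58 in the authors' deposited table. IDH1, the cytosolic NADP-dependent isocitrate dehydrogenase, was lower at -0.59 (Q = 0.0219), and ME2, the mitochondrial malic enzyme, at -0.40 (Q = 0.0486, authors' deposited table). The 3 higher genes encode subunits of matrix complexes and had values close to those of SDHB and SDHD.

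**Figure D5:**
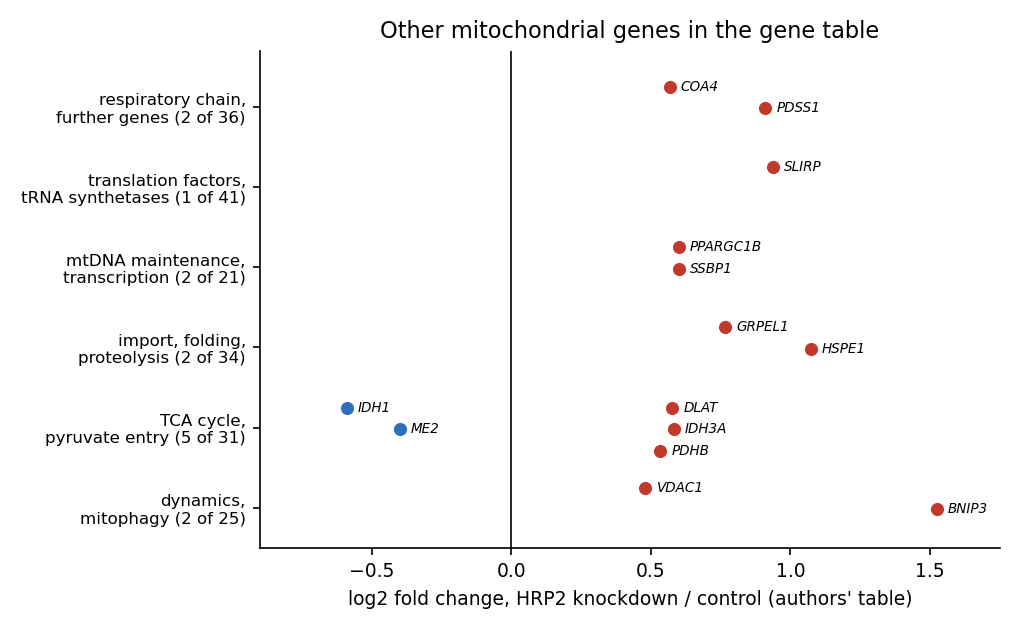
Log2 fold change (x axis) of the 14 called genes of 6 further mitochondrial lists (y axis, with called of listed genes in brackets), 1 point a gene, red for higher and blue for lower. The 2 lower genes, IDH1 (a cytosolic enzyme) and ME2, are both in the tricarboxylic acid cycle list. BNIP3 has the highest value.

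Of the 187 genes of these lists, 10 (5.35%) had a called transcript, beside 3.62% of all listed mRNA genes. They had 12 called transcripts, of which 9 were higher and 3 lower, beside 530 higher and 510 lower over the authors' deposited transcript table. MFF and PPRC1 each had 1 in either direction. MFF, a fission receptor, had transcripts at 8.52 and -8.42 in the authors' deposited table, and PPRC1, a relative of PPARGC1B, at 9.37 and -10.74. A transcript of NRF1 was lower (NM_001293164.1, -8.40, Q = 0.0410, authors' deposited table), with the NRF1 gene not called. A transcript of HSPD1, the matrix chaperonin that works with HSPE1, was at 11.40 (NM_199440.1, Q = 1.22e-07, authors' deposited table), with the HSPD1 gene not called. Of the 12, only TRAP1, a matrix HSP90, at 2.54 and HSPE1 at 1.08 had values under 6 in the authors' deposited table.

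What the members share beyond their names was described without a test. They lie on 13 chromosomes, with at most 3 on the same chromosome. Their median transcript GC content was 47.2%, from 35.0% for MRPL50 to 61.6% for MRPS12. For the 17 higher members it was 46.9%, beside 46.7% for the other 344 higher genes and 50.1% for the 207 listed members that were not called. COQ4, the only lower member, had 57.5%, beside a median of 57.4% for all lower genes, COQ4 included. The median of the higher members was thus close to that of the other higher genes. Single members could differ, as MRPS12, a higher member, lay above the median of all lower genes. The part of base composition in the calls was not tested. Median transcript length was 1214.5 bases for called members and 844 bases for the listed members not called, beside 1840 bases for all called genes.

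Promoter entries of 300 bases (250 before to 50 after the start, RefSeq, GRCh38.p14) were found for 15 of the 18 called members. The GABP core CCGGAAG was present on either strand in 5 of these 15 (33.3%: MRPS12, SDHB, SDHD, TIMM23 and TOMM22), in 38.0% of 179 listed members not called, in 19.3% of 280 other higher genes, in 16.7% of 15514 listed mRNA genes and in 12.2% of all 27305 genes of the table. The YY1 core AAGATGG was found in 4 of 15 (26.7%), in 25.1% of the members not called, in 10.0% of the other higher genes, in 7.97% of listed mRNA genes and in 7.11% of all genes. The NRF1 core GCGCATG was found in 2 of 15 (SDHB and SDHD), in 16.8% of the members not called, in 6.79% of the other higher genes, in 6.87% of listed mRNA genes and in 5.30% of all genes. Its letters were set after a longer form had been searched, which SDHD alone of the members held. The MYC E-box CACGTG was in 1 of 15 (TIMM8A), in 11.7% of the members not called, in 15.4% of the other higher genes, in 11.0% of listed mRNA genes and in 8.77% of all genes. No test was made of these shares, and the motifs can overlap each other. A match is a description of letters in the window and not a binding site.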

How the data were processed

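RNA of 4 LP-1 libraries was sequenced, 2 of HRP2 knockdown and 2 of control cells. The submitters' processing notes name BWA, Bowtie2, RSEM and hg19; the annotation, tool roles, strandedness, scaling and test were not given in the sources used here. The log2 fold changes were deposited by the authors per gene and per transcript, with header stems that match the sample titles, and were used as given. The Q value of each (corrected p-value) was also deposited by the authors. The deposited lists of identifiers carry no numbers and gave the listed genes. No value per library entered any step, so the planned count tests were not run and the authors' calls were counted.

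The members and lists were chosen with earlier results of these data known. Genes named are all members, the targeted gene and every called gene of 7 lists; SLC5A3, NDUFA4L2 and the transcripts of the lists were chosen after their values were seen. GC content and length are medians over the coding transcripts of GENCODE 29. Shared sequence is the percent of a gene's 31-base words, in its longest coding transcript, found in other genes (limit 50%). The sequence of the COQ4 transcripts is not reported here. Word and motif searches were tested on simulated sequences. Python 3.11.15 and pandas 2.3.3 were used. The alternatives were a Q value under 0.01, a minimum size of change, leaving out members with shared or overlapping sequence, older symbols, and transcript classes.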

Additional observations from a re-analysis of the deposited data

How the results depend on the processing

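Of the 18 called member genes, 7 were left with a Q value under 0.01 and 1 when an absolute log2 change of 1 was required, all of them higher; fewer genes pass these rules by construction. The background is then 1.05% and 0.611% of listed mRNA genes. The count was 16 without NDUFV2 and TOMM5, which share over 50% of their words with other genes (15 higher, 1 lower). Members under that limit were kept, such as MRPS17 with 46.9%. The count was 19 with older symbols, which add PDSS1, and 18 over all RNA types. Without MRPS6, which overlaps SLC5A3, it was 17 (an alternative chosen after seeing the data). The median log2 fold change of the called members, 0.59, was 0.75 with a Q value under 0.01 and 1.10 where only MRPS6 was left by the size rule, and 0.59 under each of the other 4 (for the size rule, older symbols and all RNA types this was computed after seeing the data). Of the 4 called transcripts, 1 was left under an absolute log2 fold change of 6 (TOMM40L) and 1 with only curated NM accessions (COQ4), while all 4 had a Q value under 0.01. The median over the 4 transcripts, which go both ways, was -2.13, and it turned to 4.74 with only TOMM40L left, so it describes none of them. No paired analysis was possible because the files used hold no value per library, and for the same reason no library could be left out. Depth is unknown.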
